A study of Sus scrofa with 22 samples.

Results

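The genes described here make, convert and break down sphingolipids, the membrane lipids built on ceramide, and gangliosides, the sialic acid carrying glycosphingolipids of neuronal membranes. They were chosen by name as 40 genes in 4 branches: ceramide synthesis (14), sphingomyelin synthesis and cleavage (5), gangliosides (7) and breakdown (14). The enzymes that build the galactolipids of myelin are not among them. Of the 40 names, 38 matched an identifier among the 31907 in the count tables, ASAH2 and ST3GAL2 were not matched and are not analysed here, and 37 had enough reads to be tested.

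RNA was sequenced from the cerebellum of 22 piglets, a newborn model of obstructive cholestasis, in which bile cannot leave the liver. In 11 piglets (7 females and 4 males) the bile duct was ligated (BDL) at 8 days of age, and 11 controls (5 females and 6 males) had sham surgery (SHAM) at that age. All animals were followed for 3 weeks, and the study also ran tests of balance and gait and profiled bile acids and lipids. The labels name no breed, genotype or litter, and p-values therefore measure the spread between these animals, some of which may be related. The labels' body weights, given without a unit, averaged 2044 ± 313 for BDL piglets and 2035 ± 273 for SHAM piglets (SD, n = 11 each).

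Ceramide is made in the endoplasmic reticulum from serine and palmitoyl-CoA, and ceramide synthases that differ in their preferred acyl chain attach the fatty acid. From ceramide, cells make sphingomyelin by adding phosphocholine, or gangliosides by adding glucose, further sugars and sialic acids in the Golgi. Lysosomal enzymes with their activator proteins take these lipids apart again, and inherited loss of many of them causes lipid storage disease of the brain. Gangliosides are abundant in neurons, and very long chain sphingolipids in myelin.

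Each library held between 14811464 and 20046909 reads counted to genes, and 19538 to 20490 genes had at least 1 read. Levels are given as CPM, the gene's reads scaled to a fixed library total, scaled by the trimmed mean of M-values (TMM) between libraries and not divided by gene length, so they compare animals and not genes. The tissue label was checked on marker lists: all 12 granule neuron markers were measured, with summed levels of 6098 to 7409 CPM in BDL and 6029 to 7895 CPM in SHAM, and none was at 0. The 10 measured oligodendrocyte and myelin markers varied far more between animals, from 5094 to 28527 CPM in BDL and from 7247 to 25061 CPM in SHAM, and BDL replicate 2, a female, had the lowest sum of all 22. A level in whole tissue cannot tell fewer cells of a type from less RNA per cell.

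No gene of the set was called different between BDL and SHAM once p-values were adjusted for the number of genes tested. With edgeR's quasi-likelihood test, sex as a covariate and Benjamini-Hochberg adjustment over all 14994 genes tested, 0 of 37 members passed an adjusted p of 0.05, as did 0% of all genes. The smallest adjusted p of a member was 0.881. DESeq2 and limma-voom also called 0 members. At an unadjusted p under 0.05 there were 3 members in edgeR, against 4.96% of all genes, 3 in DESeq2 and 2 in limma-voom. The fitted log2 change was above 0 in 19 members and below 0 in 18, where 50.3% of all genes lay above 0, and the members' median was 0.0009 beside 0.0006 for all genes. BDL and SHAM values overlapped in all 37 members, as in every gene tested (0% without overlap), so the overlap says nothing particular to the members.

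The 95% interval of the BDL to SHAM ratio lay within 1.5-fold either way for 36 of 37 members (97.3%; all genes 87.1%). The exception was ACER2, an alkaline ceramidase of the Golgi with only 4 to 25 counts per library, at 0.702 ± 0.315 CPM in BDL and 0.638 ± 0.398 CPM in SHAM (SD, n = 11 each). The coefficient of variation within groups took the pooled SD of BDL and SHAM over the mean of all animals. Its median over the members was 11.8%, and it ran from 4.63% for HEXA to 53.5% for ACER2.

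**Figure D1:**
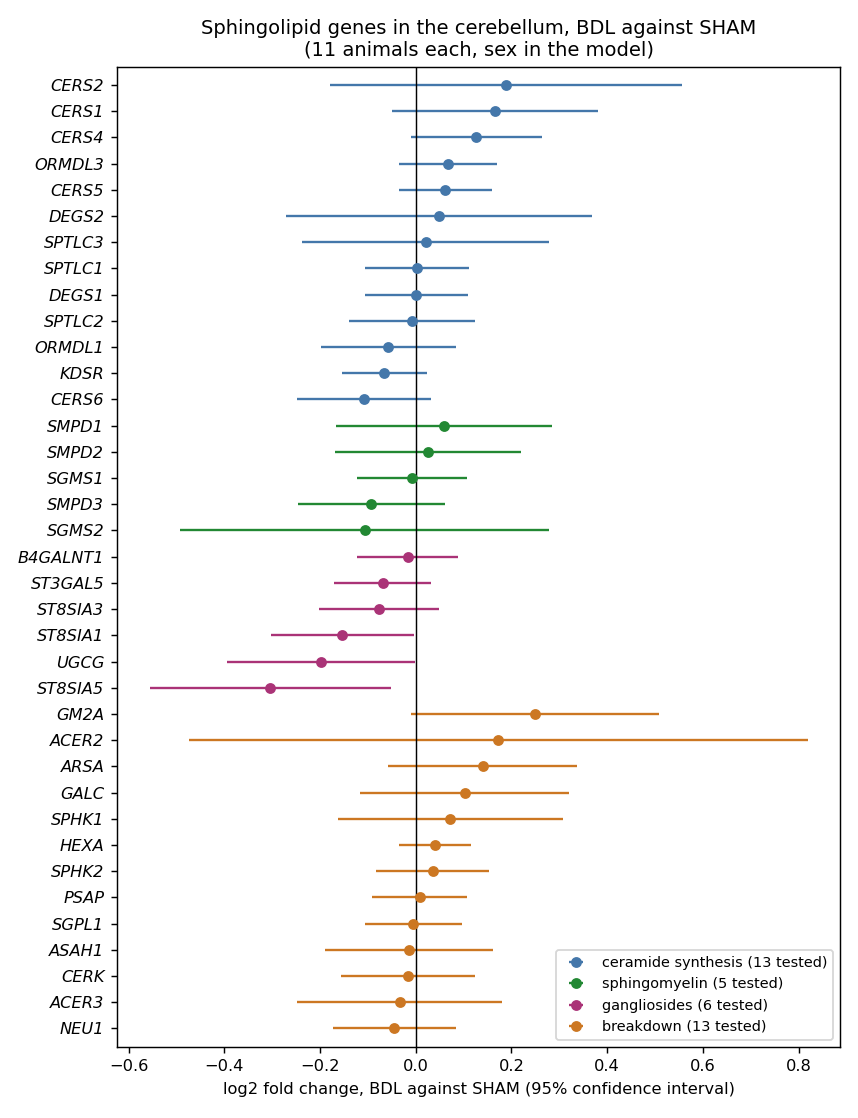
Difference between BDL and SHAM for the 37 tested members, grouped by branch, as the log2 fold change from edgeR (x axis) with its 95% interval (bars). The 6 ganglioside genes lie below 0, 3 of them with intervals that end just below it, and no member passed the adjusted threshold.

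The ganglioside branch held the 3 members at an unadjusted p under 0.05, all on the lower side in BDL (2.73% of all genes). All 6 tested ganglioside genes had a fitted change below 0, with a median of -0.12, where 49.7% of all genes lay below 0 and the median of all genes was 0.0006. None passed the adjusted test. The shared direction holds for the genes listed in the branch, which were chosen with earlier results of these data known. Sugar and sialic acid transferases outside the branch lay on both sides. B3GALT4 was at 0.12, ST6GALNAC5 at 0.10 and ST6GALNAC4 at 0.02, while B4GALT5 was at -0.13, B4GALT6 at -0.09 and ST6GALNAC3 at -0.04.

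UGCG (chr1:252651850-252690817, on the Sscrofa11.1 build, from RefSeq's gene models) is the glucosylceramide synthase, which commits ceramide to glycosphingolipids. Its lowest, median and highest levels were 9.64, 11.8 and 14.1 CPM in BDL and 10.04, 13.2 and 17.5 CPM in SHAM. The groups overlapped over most of their range, with 3 BDL animals below every SHAM animal and 3 SHAM animals above every BDL animal. The log2 change was -0.20 ± 0.10 (SE; 95% interval -0.40 to -0.0014; adjusted p = 0.881, edgeR).

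ST3GAL5 (chr3:58862984-58919554), the GM3 synthase that adds the first sialic acid, stood at 53.1, 59.7 and 71.2 CPM in BDL and 55.5, 64.2 and 69.2 CPM in SHAM. The highest animal of all was in BDL, although 8 of 11 BDL animals lay below the SHAM mean. Its log2 change was -0.07 ± 0.05. B4GALNT1 (chr5:22889654-22897386), which adds N-acetylgalactosamine to make GM2 and GD2, ran through 53.9, 58.9 and 64.7 CPM in BDL and 47.1, 56.4 and 70.1 CPM in SHAM, so that the BDL range lay inside the SHAM range. Its fitted log2 change was -0.02 ± 0.05, while the plain means were 58.9 in BDL and 58.6 CPM in SHAM. The sign therefore rested on the sex term.

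The other 3 genes are alpha-2,8-sialyltransferases. ST8SIA1 (chr5:51211312-51364226), the GD3 synthase that opens the b-series of gangliosides, had levels of 39.1, 50.1 and 59.7 CPM in BDL and 45.2, 55.2 and 67.4 CPM in SHAM. Only 2 BDL animals lay below the SHAM minimum and 2 SHAM animals above the BDL maximum. On the log2 scale the difference was -0.15 ± 0.07 (95% interval -0.30 to -0.0045; adjusted p = 0.881, edgeR).

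ST8SIA5 (chr1:96291794-96375909), which adds further sialic acids to make polysialogangliosides, had the largest difference of the 37 members. Its levels were 63.1, 100.5 and 122 CPM in BDL and 81.2, 112 and 159 CPM in SHAM, with means of 92.2 ± 20.2 and 113 ± 22.6 CPM (SD, n = 11 each). In BDL 9 of 11 animals lay below the SHAM mean and 4 below the SHAM minimum, while 2 SHAM animals lay above the BDL maximum. The log2 change was -0.30 ± 0.12 (95% interval -0.56 to -0.05; unadjusted p = 0.0202, adjusted p = 0.881, edgeR), and 258 other genes of the 14994 had a smaller p. Without BDL replicate 2, whose 63.1 CPM was the lowest value, it was -0.26.

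ST8SIA3 (chr1:106683536-106701165), a sialyltransferase of glycoproteins and gangliosides, ranged over 119, 144 and 162 CPM in BDL and 128, 147 and 189 CPM in SHAM. The medians lay close together, 8 of 11 BDL animals lay below the SHAM mean, and the log2 change was -0.08 ± 0.06.

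**Figure D2:**
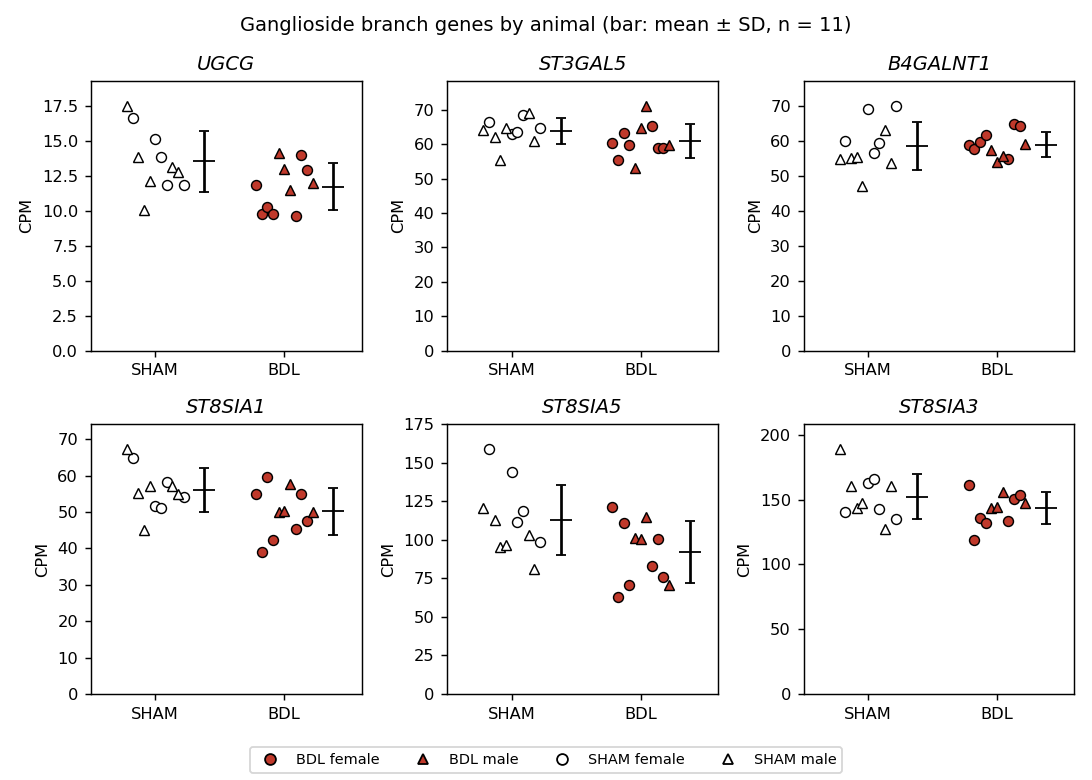
Level in CPM (y axis, from 0) of the 6 tested ganglioside genes in each animal, BDL in red and SHAM in white, females as circles and males as triangles, with the group mean and SD. The groups overlap in every panel, and ST8SIA5 has the widest spread in both groups, from 63.1 to 122 CPM in BDL and from 81.2 to 159 CPM in SHAM.

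Ceramide synthesis showed no shared direction: 9 of 13 tested genes lay above 0 and 4 below, with a median log2 change of 0.02. The first enzyme, serine palmitoyltransferase, had nearly equal levels in both groups. Its subunit SPTLC1 averaged 41.6 ± 3.37 CPM in BDL and 42.1 ± 3.58 CPM in SHAM, SPTLC2 averaged 53.5 ± 5.74 and 53.5 ± 5.26 CPM, and SPTLC3 averaged 5.17 ± 0.958 and 5.20 ± 1.12 CPM (SD, n = 11 each). KDSR, which reduces the product of that step, averaged 75.4 ± 5.40 CPM in BDL and 79.0 ± 3.70 CPM in SHAM, a log2 change of -0.07 ± 0.04. In BDL 4 animals lay below the SHAM minimum and 1 above the SHAM maximum, at 87.7 against 84.2 CPM.

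The ceramide synthases had differences of both signs. CERS1 (chr2:58951463-58972692), the neuronal synthase of C18 ceramides, ran through 73.8, 93.3 and 122 CPM in BDL and 65.3, 81.6 and 119 CPM in SHAM, with a log2 change of 0.17 ± 0.10. CERS4 (chr2:71004418-71047968) had the smallest p of the branch, with levels of 51.4, 65.7 and 83.4 CPM in BDL and 54.3, 59.7 and 65.7 CPM in SHAM. The BDL animals were spread on both sides of the narrow SHAM range, 5 above it and 1 below. On the log2 scale BDL differed by 0.13 ± 0.07 (adjusted p = 0.881, edgeR).

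CERS6 (chr15:74927088-75261558), which prefers shorter acyl chains, pointed the other way, with 125, 147 and 160 CPM in BDL and 120, 154 and 180 CPM in SHAM. In SHAM 5 animals lay above every BDL animal, and the log2 change was -0.11 ± 0.07. CERS5 averaged 48.6 CPM in BDL and 46.4 CPM in SHAM, a log2 change of 0.06 ± 0.05. CERS2 (chr4:98250773-98260504), the synthase of very long chain ceramides, varied most of the branch, from 49.7 through a median of 99.3 to 163 CPM in BDL and from 56.3 through 87.1 to 128 CPM in SHAM. Its highest animal had 3.28 times the level of its lowest, and the log2 change of 0.19 ± 0.18 was about as large as its own error.

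The last step and the regulators of the first enzyme differed little. DEGS1, the desaturase that turns dihydroceramide into ceramide, averaged 40.9 CPM in BDL and 40.8 CPM in SHAM, and its relative DEGS2 had a log2 change of 0.05 ± 0.16. The ORMDL proteins restrain serine palmitoyltransferase when ceramide is plentiful. ORMDL1 differed by -0.06 ± 0.07 and ORMDL3 by 0.07 ± 0.05 on the log2 scale. ORMDL2 (chr5:21262134-21264689) had 0 counts in all 22 libraries, where 3 counts would be 0.203 CPM in the smallest and 0.15 CPM in the largest. The gene models SARNP and DNAJC14 overlap it, and reads in such overlaps can be dropped or assigned elsewhere when genes are counted, so the zero gives no level.

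Of the 5 sphingomyelin genes 2 lay above 0 and 3 below, with a median log2 change of -0.01. SGMS1 (chr14:99147266-99458111), the Golgi sphingomyelin synthase, had 39.7, 46.7 and 52.7 CPM in BDL and 38.8, 47.6 and 49.8 CPM in SHAM. SGMS2, the synthase at the plasma membrane, had 13 to 45 counts per library, with 0.912, 1.47 and 2.36 CPM in BDL and 0.742, 1.67 and 2.50 CPM in SHAM. The ranges of both genes overlapped over most of their width, and the log2 changes were -0.01 ± 0.06 and -0.11 ± 0.19. SMPD1 (chr9:3324091-3328493), the lysosomal acid sphingomyelinase, ran through 46.4, 72.6 and 81.9 CPM in BDL and 50.9, 61.0 and 90.9 CPM in SHAM. The higher BDL median went with a lower BDL maximum, and the log2 change was 0.06 ± 0.11. SMPD3 (chr6:28938287-29025397), a neutral sphingomyelinase, had 24.0, 27.8 and 34.8 CPM in BDL and 24.1, 29.6 and 36.3 CPM in SHAM. Only 1 BDL animal lay above the SHAM mean, and the log2 change was -0.09 ± 0.07. SMPD2, another neutral sphingomyelinase, differed by 0.03 ± 0.09.

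Breakdown genes lay above 0 in 8 of 13 and below in 5, with a median log2 change of 0.04. GM2A (chr16:71742090-71767872), the activator that presents the ganglioside GM2 to hexosaminidase A, had the largest positive difference of all members. Its levels were 10.5, 16.9 and 20.5 CPM in BDL and 9.83, 12.3 and 18.9 CPM in SHAM. In BDL 9 of 11 animals lay above the SHAM mean and 4 above the SHAM maximum. Its difference on the log2 scale was 0.25 ± 0.13 (95% interval -0.01 to 0.51; adjusted p = 0.881, edgeR).

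HEXA (chr7:60878531-60911537), the alpha subunit of hexosaminidase A, had 120, 127 and 141 CPM in BDL and 118, 127 and 131 CPM in SHAM. The medians were equal, and the log2 change was 0.04 ± 0.04.

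ARSA (chr5:107103-110330), the sulfatidase arylsulfatase A, had 13.9, 20.1 and 26.3 CPM in BDL and 12.5, 18.2 and 26.1 CPM in SHAM. Although 10 of 11 BDL animals lay above the SHAM mean, the ranges coincided, and the log2 change was 0.14 ± 0.10. PSAP (chr14:74734185-74820645), the precursor of the saposins that activate several of these hydrolases, had 1311, 1563 and 1649 CPM in BDL and 1389, 1509 and 1802 CPM in SHAM. Its log2 change was 0.01 ± 0.05. GALC, the galactosylceramidase, averaged 14.3 ± 2.39 CPM in BDL and 13.4 ± 2.23 CPM in SHAM, a log2 change of 0.10 ± 0.11. NEU1, a lysosomal sialidase, differed by -0.04 ± 0.06.

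Ceramidases and the enzymes of sphingosine 1-phosphate, a signalling lipid, likewise stayed below the threshold. ASAH1, the acid ceramidase, differed by -0.01 ± 0.09 on the log2 scale and ACER3, an alkaline ceramidase, by -0.03 ± 0.10. The sphingosine kinases SPHK1 and SPHK2 differed by 0.07 ± 0.11 and 0.04 ± 0.06, and SGPL1, the lyase that degrades sphingosine 1-phosphate for good, by -0.01 ± 0.05. CERK (chr5:2818738-2870200), the ceramide kinase, had 117, 134 and 168 CPM in BDL and 111, 145 and 193 CPM in SHAM, with a log2 change of -0.02 ± 0.07. No BDL animal lay outside the SHAM range of CERK.

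The other genes of the pathway were not called either. Of 43 further sphingolipid genes, 40 matched an identifier and 38 were tested, 19 above 0 and 19 below, with a median log2 change of 0.0018. None passed the adjusted threshold in edgeR (0% of all genes). At an unadjusted p under 0.05 there were 2, near the 4.96% of all genes, among them SMPDL3B on the higher side. SMPDL3B, a relative of acid sphingomyelinase, averaged 2.56 ± 0.44 CPM in BDL and 2.10 ± 0.31 CPM in SHAM (SD, n = 11 each). GLTP, which carries glycolipids between membranes, averaged 30.6 ± 5.95 and 26.0 ± 4.91 CPM. CERS3 and S1PR4 had too few counts to be tested.

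The study's animals of both sexes allow a test of treatment by sex. It called 0 of 37 members (0% of all genes; edgeR), with 1 member at an unadjusted p under 0.05 in edgeR and DESeq2 and 2 in limma-voom, against 4.6% of all genes in edgeR. Its log2 term, the BDL effect in females minus that in males, was below 0 in 24 of 37 members, where 48.5% of all genes were below 0. Within females 0 members were called (0% of all genes) and 2 had an unadjusted p under 0.05 (5.83% of all genes), and within males 0 were called (0%) and 1 had one (4.08%).

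ST8SIA5 in females had 63.1, 83.0 and 122 CPM in BDL and 98.9, 119 and 159 CPM in SHAM, and all 7 BDL females lay below the SHAM female mean. In males it had 71.0, 101 and 115 CPM in BDL and 81.2, 99.9 and 120 CPM in SHAM, with nearly equal medians. The log2 change was -0.50 ± 0.16 in females and -0.07 ± 0.17 in males, and the difference between them was -0.43 ± 0.23 (adjusted p = 0.917, edgeR). UGCG differed by -0.31 ± 0.13 in females and -0.06 ± 0.14 in males. The ganglioside genes lay below 0 in 6 of 6 in females (49.5% of all genes), with a median of -0.15, and in 5 of 6 in males (52.5% of all genes), with a median of -0.06.

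For CERS2 the male levels were 85.4, 118 and 163 CPM in BDL and 56.3, 77.0 and 111 CPM in SHAM, and all 4 BDL males lay above the SHAM male mean. Its female levels were 49.7, 96.4 and 138 CPM in BDL and 80.7, 94.4 and 128 CPM in SHAM, with medians close together. The log2 change was 0.54 ± 0.25 in males and -0.10 ± 0.23 in females, a difference of -0.65 ± 0.33 (adjusted p = 0.917, edgeR).

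ACER3 had the smallest p of the members in that test. It stood at 13.0, 19.3 and 25.7 CPM in BDL females and 22.6, 24.1 and 25.6 CPM in SHAM females, and at 23.6, 25.8 and 31.1 CPM in BDL males and 17.9, 22.3 and 27.1 CPM in SHAM males. BDL was on the lower side in females and the higher side in males, by -0.25 ± 0.13 and 0.23 ± 0.14 on the log2 scale, and the difference was -0.48 ± 0.19 (adjusted p = 0.917, edgeR).

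No oligodendrocyte or myelin marker was called within either sex (edgeR). Their summed level had a median of 20788 CPM in BDL males and 12238 CPM in SHAM males, against 14098 CPM in BDL females and 15425 CPM in SHAM females. All 10 markers were on the higher side in BDL males, with a median log2 change of 0.59, and 9 of 10 on the lower side in BDL females, with a median of -0.17. The 9 microglia markers had a median of 0.21 in males, 9 of 9 on the higher side, and of -0.14 in females, 8 of 9 on the lower side. Of all genes, 47.5% lay above 0 in males and 49.5% below 0 in females. Opposite sides were not particular to glia: the 8 Purkinje cell markers were 8 of 8 higher in males (median 0.11) and 5 of 8 lower in females (median -0.04). The astrocyte and Bergmann glia markers were 6 of 7 lower in both sexes. The 3 tested choroid plexus markers had median log2 changes of -2.54 in males and 1.95 in females, and single animals were extreme. The summed level of the 4 measured had a median of 48.8 CPM in BDL females, with a maximum of 1440 CPM. In SHAM females its median was higher, at 65.3 CPM, with a maximum of 251 CPM. It ran from 12.9 to 95.1 CPM in BDL males and from 4.13 to 882 CPM in SHAM males. The fits within each sex were also run with the mean level of the oligodendrocyte and myelin markers added. Their values for CERS2 and ACER3 were not read out. The part of the microglia, Purkinje cell, astrocyte and choroid plexus markers in the values of CERS2 and ACER3 was not tested.

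**Figure D3:**
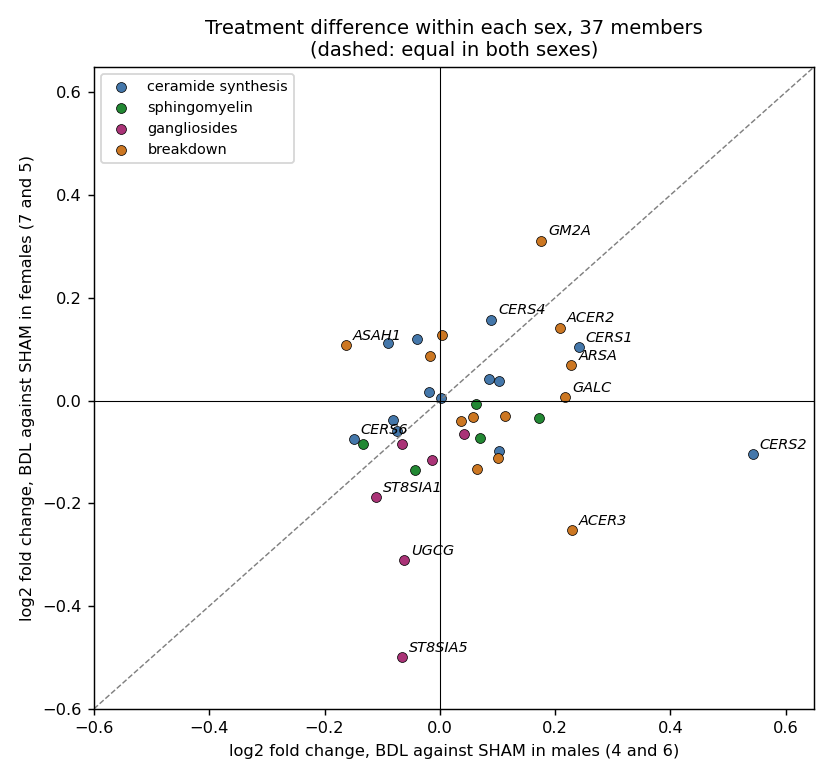
Log2 change between BDL and SHAM of the 37 members in females (y axis, 7 BDL and 5 SHAM animals) against that in males (x axis, 4 BDL and 6 SHAM animals), with a dashed line of equality. CERS2 lies far to the right at 0.54 in males, and ST8SIA5 lies lowest at -0.50 in females.

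No member passed the test for sex or for body weight. The comparison of females with males called 0 of 37 members (0.06% of all genes; edgeR), with 3 at an unadjusted p under 0.05 (5.95% of all genes), 2 in DESeq2 and 3 in limma-voom. B4GALNT1 averaged 61.4 ± 4.77 CPM in 12 females and 55.6 ± 4.13 CPM in 10 males, CERK 136 ± 10.97 and 151 ± 21.4 CPM, and SPHK2 63.5 ± 4.67 and 58.2 ± 6.21 CPM. The smallest adjusted p was 0.724. For body weight, 0 members were called (0% of all genes; edgeR) and 1 had an unadjusted p under 0.05 (7.39% of all genes) in each of edgeR, DESeq2 and limma-voom. That member was GM2A, with a log2 change of 0.15 ± 0.06 per SD of weight.

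Across animals, part of the set followed the oligodendrocyte and myelin markers. A marker score, the mean log2 CPM of the 10 measured genes, was 8.09 ± 0.59 in BDL and 7.95 ± 0.43 in SHAM (SD, n = 11 each). After sex and treatment were removed, Pearson's r between each gene and the score was tested over the 22 animals with 100000 permutations and adjusted over 14984 genes. Of 37 members, 7 had an adjusted p under 0.05 with positive r (18.9%; all genes 4.62%), and 0 with negative r (all genes 1%). They were 4 of 13 breakdown genes, 2 of 13 ceramide genes, 1 of 5 sphingomyelin genes and 0 of 6 ganglioside genes. The median r was 0.22 for the members and -0.03 for all genes. The score and the members come from the same libraries, and none of the 40 genes is in the marker list.

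CERS2 followed the score almost point for point, with r = 0.987 (permutation p = 1e-05, the smallest that the permutations can give; adjusted p = 0.000609) and Spearman's rho = 0.989 (permutation p = 1e-05). Without the 2 animals farthest from the median score, r was 0.981. PSAP had r = 0.797 (permutation p = 1e-05, adjusted p = 0.000609) and rho = 0.772 (permutation p = 5e-05), and r = 0.653 without those 2 animals. GALC had r = 0.727 (permutation p = 0.00012, adjusted p = 0.00452) and rho = 0.714 (permutation p = 0.00028), and r = 0.612 without them. These are the synthase of very long chain ceramides, the saposin precursor and the hydrolase of galactosylceramide, a main lipid of myelin.

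The other 4 had a smaller r over all animals, though SMPD1 had a higher rho than GALC. SPTLC2 had r = 0.706 (permutation p = 0.00029, adjusted p = 0.00913) and rho = 0.631 (permutation p = 0.00215), and r = 0.567 without the 2 animals. ARSA had r = 0.679 (permutation p = 0.00049, adjusted p = 0.0138) and rho = 0.649 (permutation p = 0.00166), and r = 0.621 without them. SMPD1 had r = 0.668 (permutation p = 0.00058, adjusted p = 0.0159) and rho = 0.743 (permutation p = 0.00014), and r = 0.701 without them. ACER3 had r = 0.644 (permutation p = 0.00154, adjusted p = 0.0331) and rho = 0.612 (permutation p = 0.0031), and r = 0.551 without them. All 7 kept a positive r, but only 3 then reached the r of the weakest of the 7.

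No member had an adjusted p under 0.05 with the granule neuron score, positive (all genes 2.5%) or negative (all genes 1.64%). The closest were GALC at r = -0.581 (adjusted permutation p = 0.0786), ASAH1 at r = -0.561 (adjusted permutation p = 0.0820) and ST8SIA3 at r = 0.549 (adjusted permutation p = 0.0988). UGCG had r = 0.0004 with the oligodendrocyte score and r = 0.512 with the granule score (adjusted permutation p = 0.130). With the granule score its rho was 0.355 (permutation p = 0.105), and its r was 0.274 without the 2 animals farthest from the median of that score. The 2 scores had r = -0.11 with each other (permutation p = 0.624; rho = -0.091, permutation p = 0.685), and r = -0.30 without the 2 farthest animals.

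**Figure D4:**
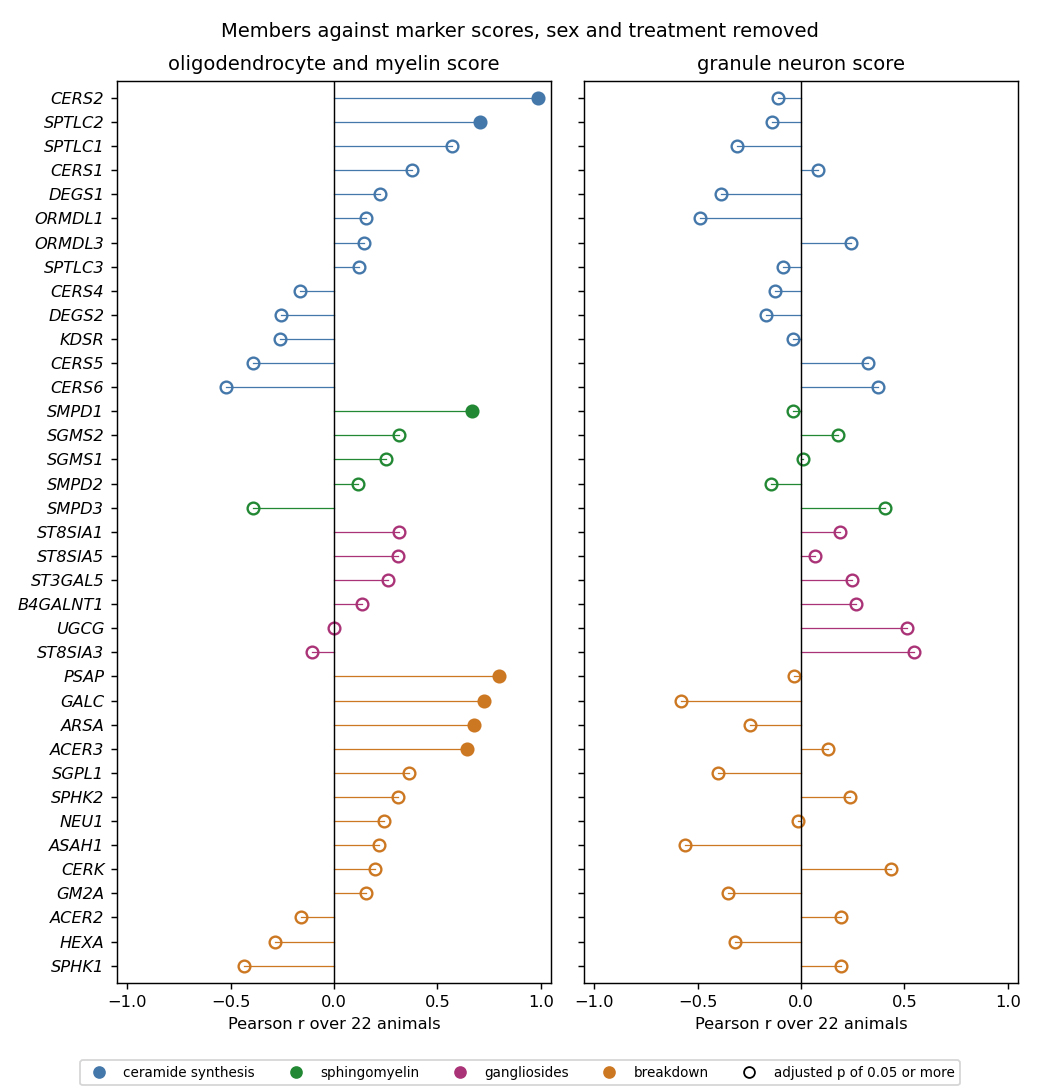
Pearson's r over 22 animals of the 37 members with the oligodendrocyte and the granule neuron marker scores, after removing sex and treatment, with filled points for an adjusted p under 0.05. The 7 filled points are all positive and all with the oligodendrocyte score, led by CERS2 at 0.987.

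**Figure D5:**
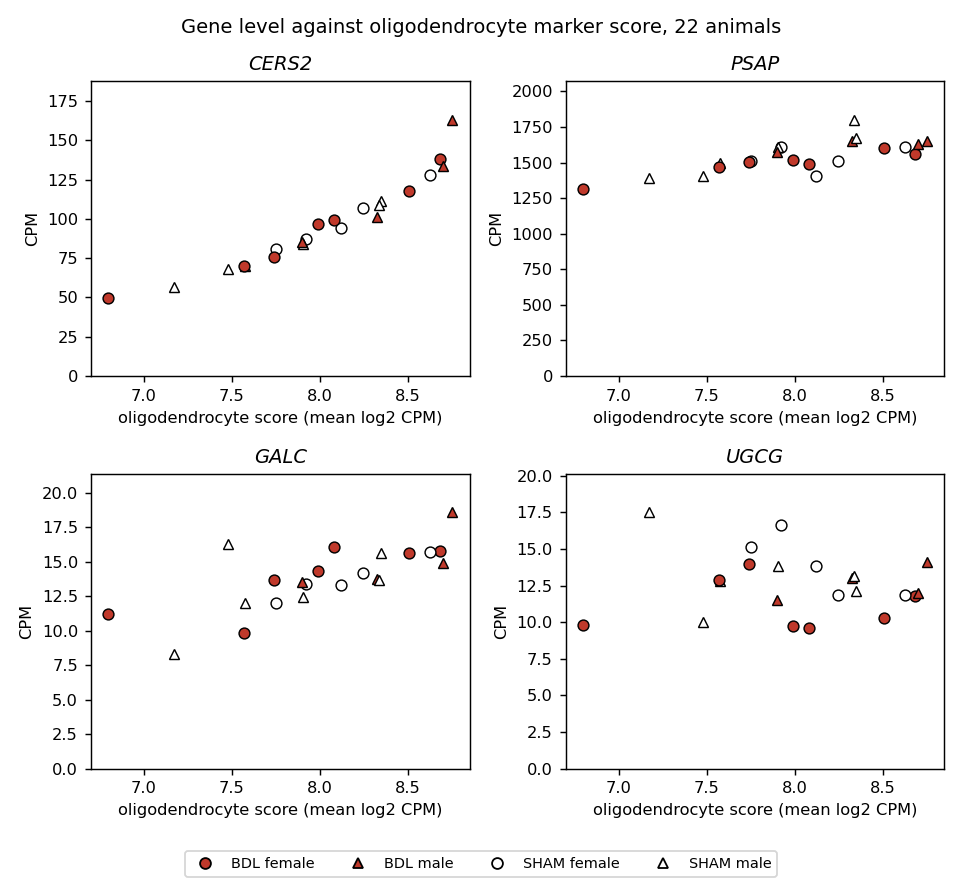
Level in CPM (y axis) of CERS2, PSAP, GALC and UGCG in each animal against the oligodendrocyte marker score (x axis, mean log2 CPM of 10 genes). CERS2 climbs steeply with the score from 49.7 to 163 CPM, while UGCG shows no trend. On log2 CPM, r for UGCG was -0.053, and 0.0004 after sex and treatment were removed.

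With the score added to the comparison of BDL and SHAM, the difference lay nearer 0 for 4 of these 7 genes. CERS2 moved from 0.19 to 0.04 on the log2 scale, GALC from 0.10 to 0.04, ARSA from 0.14 to 0.09 and SMPD1 from 0.06 to 0.01. ACER3 moved away from 0, from -0.03 to -0.10, SPTLC2 from -0.01 to -0.04 and PSAP from 0.01 to -0.02. The median of the 7 genes went from 0.06 to 0.01. Of the ganglioside genes, ST8SIA5 was at -0.34, ST8SIA1 at -0.17 and UGCG at -0.20 with the score, against -0.30, -0.15 and -0.20 without it. GM2A was at 0.24. No member was called with the score either (0 of all genes tested), with a smallest adjusted p of 0.755 (edgeR). At an unadjusted p under 0.05 there were 2 members with the score, against 3 members and 4.96% of all genes without it.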

How the data were processed

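RNA-seq counts per gene for each animal were deposited by the authors, 1 table per library, and the report starts from them. Per the submitters' processing notes, Trim Galore, HISAT2, HTSeq and DESeq2 were used with the build Sscrofa11.1; no version is listed, and whether counting used strand is not stated in the labels. Reads of overlapping genes may be split or lost (11 members overlap another gene model). Between 29.9% and 34.6% of the counts in a table belonged to no gene and were left out of library sizes. No 2 libraries agreed within sampling noise.

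Groups came from the treatment label. Genes passing edgeR's filterByExpr (minimum count 10, minimum total 15) were scaled by TMM and fitted with treatment and sex in edgeR 4.0.16 (limma 3.58.1, R 4.3.3) by the quasi-likelihood test; the interaction and within-sex values used the 4 treatment and sex groups, and body weight was fitted as a linear term. DESeq2 1.42.0, limma-voom and other settings were alternatives. The script was tested on simulated data. Marker scores and correlations used log2 CPM with a prior count of 2, computed here from the deposited counts; correlation p-values were adjusted over all genes tested, not over the pairs of members and lists as first planned. Coordinates are RefSeq's for Sscrofa11.1.

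Any member could be named; values in every animal were described for the 2 or 3 members with the smallest treatment p and the 2 with the highest CPM in each branch, for the 1 member without counts, and further pathway genes by smallest p. The members and lists were chosen with earlier results of these data known. The values of 1 further pathway gene are not reported here.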

Additional observations from a re-analysis of the deposited data

How the results depend on the processing

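No member was called in any of the 4 model comparisons under any of the settings tried, nor with any of the 22 animals left out. For BDL against SHAM, members at an unadjusted p under 0.05 numbered 2 to 5 over 8 other settings and 1 to 6 with animals left out (6 without SHAM replicate 11, and 1 without SHAM replicate 1, SHAM replicate 2, BDL replicate 4 or BDL replicate 8), against 3. The 5 came without the sex term and with the animal number added. Ganglioside genes were below 0 in 6 of 6 except 5 of 6 with no sex term and without SHAM replicate 6 or SHAM replicate 11. ST8SIA5 lay between -0.34 and -0.29 over settings and between -0.36 and -0.24 with animals left out, and its adjusted p, with those of ST8SIA1 and UGCG, lay between 0.713 and 0.992. Of 21 genes followed through 630 values, 16 values of 3 genes changed sign: PSAP (log2 -0.0048 without the sex term, -0.016 with the oligodendrocyte score, -0.0093 to 0.028 with animals left out), CERK (-0.052 to 0.017) and SGMS1 (-0.034 to 0.015), all near 0; the cause was not tested. Without the 2 animals farthest from the median score, 3 rather than 7 members had an r as large as the smallest called. No paired analysis was possible because the labels name no litter or matched pairs. Replicate numbers are not in the labels either, and those used here follow the order of deposition. Depth limits ACER2 and SGMS2 most. Intervals and the limit for a count of 0 cover these animals and counting error only.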

Other observations

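Among the 43 further pathway genes are 10 receptors and transporters of sphingosine 1-phosphate, 9 of them tested, with 6 above 0 and 3 below in BDL against SHAM and 0 called (0% of all genes; edgeR, none at an unadjusted p under 0.05 against 4.96% of all genes). SPNS2, a transporter that exports sphingosine 1-phosphate, had 42.5, 51.7 and 64.7 CPM (lowest, median, highest) in BDL and 39.8, 48.3 and 54.9 CPM in SHAM, with 9 of 11 BDL animals above the SHAM mean and a log2 change of 0.12 ± 0.07. S1PR5, the receptor of oligodendrocytes, was singled out after its values were seen: it had 10.01, 14.4 and 22.1 CPM in BDL males and 6.78, 7.84 and 14.8 CPM in SHAM males, and 5.76, 11.14 and 19.1 CPM in BDL females and 9.27, 11.4 and 19.1 CPM in SHAM females. Its log2 change was 0.71 ± 0.28 in males and -0.15 ± 0.26 in females, and the difference between the sexes was -0.87 ± 0.39 (adjusted p = 0.917, edgeR). S1PR1, a receptor of vessels and astrocytes, had 78.6, 110.4 and 129 CPM in BDL and 98.5, 115 and 132 CPM in SHAM.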
